A study of Mus musculus with 2 samples.

Results

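The mRNA levels of 10 genes of the amino acid response were followed through erythroid differentiation in the mouse fetal liver. The genes were chosen by symbol, as genes of or under the transcription factor ATF4, and are 10 of the 27998 genes listed in the count table. They are the transcription factors *Atf4*, *Atf5* and *Ddit3*, the feedback gene *Trib3*, the glutathione-degrading enzyme *Chac1*, the biosynthetic enzymes *Asns*, *Mthfd2*, *Psat1* and *Phgdh*, and the transporter subunit *Slc3a2*. The cells came from pooled livers of C57BL/6 embryos at e13.5. Per the methods of the study, Ter119+ cells were depleted magnetically, and Ter119+ cells were then returned in a number equal to the rest. The labels name no transgene, mutation or treatment. CITE-seq, in which antibodies with a DNA barcode are read together with the transcripts of each cell, gave 1 cDNA library and 1 antibody library with the same 7863 cell barcodes in both. There was thus 1 sample and no replicate, cells were not treated as replicates, and no test was made of any difference.

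ATF4 is a basic leucine zipper factor whose mRNA is translated when the initiation factor eIF2 is phosphorylated, for example when amino acids run short, when proteins misfold in the endoplasmic reticulum or, in erythroid cells, when haem is low. It binds composite C/EBP-ATF elements in genes for amino acid synthesis, amino acid uptake and tRNA charging. Erythroid cells express an eIF2 kinase regulated by haem, HRI (encoded by *Eif2ak1*), and need large amounts of amino acids for globin synthesis. An mRNA level does not show how much ATF4 protein a cell holds.

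Cells were placed in stages by their surface CD71 (the transferrin receptor) and Ter119 (a marker of late erythroid cells) after removal of cells with high lineage antibodies. Differentiation runs from S0-low (low Ter119, low CD71) over S0-medium and S1 (rising CD71) to S2 (intermediate Ter119, CD71 above the lower limit of S1), S3 (high Ter119, high CD71) and S4/S5 (high Ter119, low CD71). These gates held 1510 S0-low, 1054 S0-medium, 612 S1, 1297 S2, 838 S3 and 898 S4/S5 cells, with median depths between 3949 UMIs (unique molecular identifiers, S4/S5) and 10282 UMIs (S0-medium). All 12 erythroid marker genes were detected in every stage, and their summed level was lowest in S0-low, at 2095 CPM (UMIs of a gene per 1000000 UMIs of a cell, averaged over cells), and highest in S3, at 18584 CPM. S0-low also held 110 cells in a high range of hepatocyte marker expression, and its hepatocyte marker sum was 7246 CPM against 463 to 807 CPM in the other stages. The globin share of UMIs was 1.05% in S0-low, 13.1% in S2, 37.6% in S3 and 64.0% in S4/S5. The CPM of every other gene is lowered by that share, so values are also given with globin UMIs left out of the denominator. Over all genes tested, the median ratio of S3 to S0-medium was 0.368 in CPM and 0.601 without globin, and member ratios are read against these.

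Of the 10 members, 3 carry the core of the C/EBP-ATF response element, TGATGNAA, near their start site. It was searched on both strands of a window from 250 bases before to 50 after the start site, in RefSeq sequences on GRCm38.p6 (mm10), which hold all 10 members. The stretches are shown because elements of this kind are known as binding sites of ATF4 with its C/EBP partners. They are written 5′ to 3′ on the strand of the gene, with the matched letters in capitals. *Asns* (chr6:7693199-7693258, minus strand) has it on its own strand, 23 bases before the start site. *Trib3* (chr2:152344028-152344057, minus strand) has it on the opposite strand, at base 15 of the transcript, and *Chac1* (chr2:119351023-119351082, plus strand) on the opposite strand, 193 bases before the start site.
Asns: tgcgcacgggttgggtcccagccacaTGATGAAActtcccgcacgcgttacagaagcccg
Trib3: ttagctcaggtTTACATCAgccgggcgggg
Chac1: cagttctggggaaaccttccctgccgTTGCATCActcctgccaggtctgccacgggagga

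The motif occurred in the windows of 4.51% of the 27025 genes with a full window. A match is a description of these letters and not a binding site, and the 7 members without a match in these windows may carry one elsewhere.

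The members did not share a single course through the stages. *Asns* and *Mthfd2* were highest in S1 and S2 and lowest in S4/S5 in CPM; with globin left out they were highest in S2 and lowest in S0-low. *Psat1* and *Phgdh* were highest in S0-low and lower at each later stage up to S3 in CPM, although the *Psat1* ratio of S0-medium over S0-low was 1.14 as UMIs per cell and also 1.14 with gates set on log10 antibody counts. S0-low includes the 110 cells of the high hepatocyte-marker range. Against its cells with high surface cKit outside that range, *Psat1* in S0-medium was at 0.966 (0.888–1.05). *Atf4* moved little between S0-medium and S2, *Ddit3* was highest in S2 and S3 (without globin in S3 and S4/S5), and *Slc3a2* stayed between 97.1 and 137 CPM but was highest in S4/S5 without globin. As UMIs per cell *Slc3a2* was lowest in S4/S5, *Asns* and *Mthfd2* were highest in S1, and *Atf4* was at 1.91 in S1 and 1.31 in S2. Values in parentheses are 95% intervals, and stages are called parted where the interval of their ratio did not hold 1. These intervals cover counting error only, not differences between livers, libraries or gates, nor variation between cells of a stage beyond counting error.

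**Figure D1:**
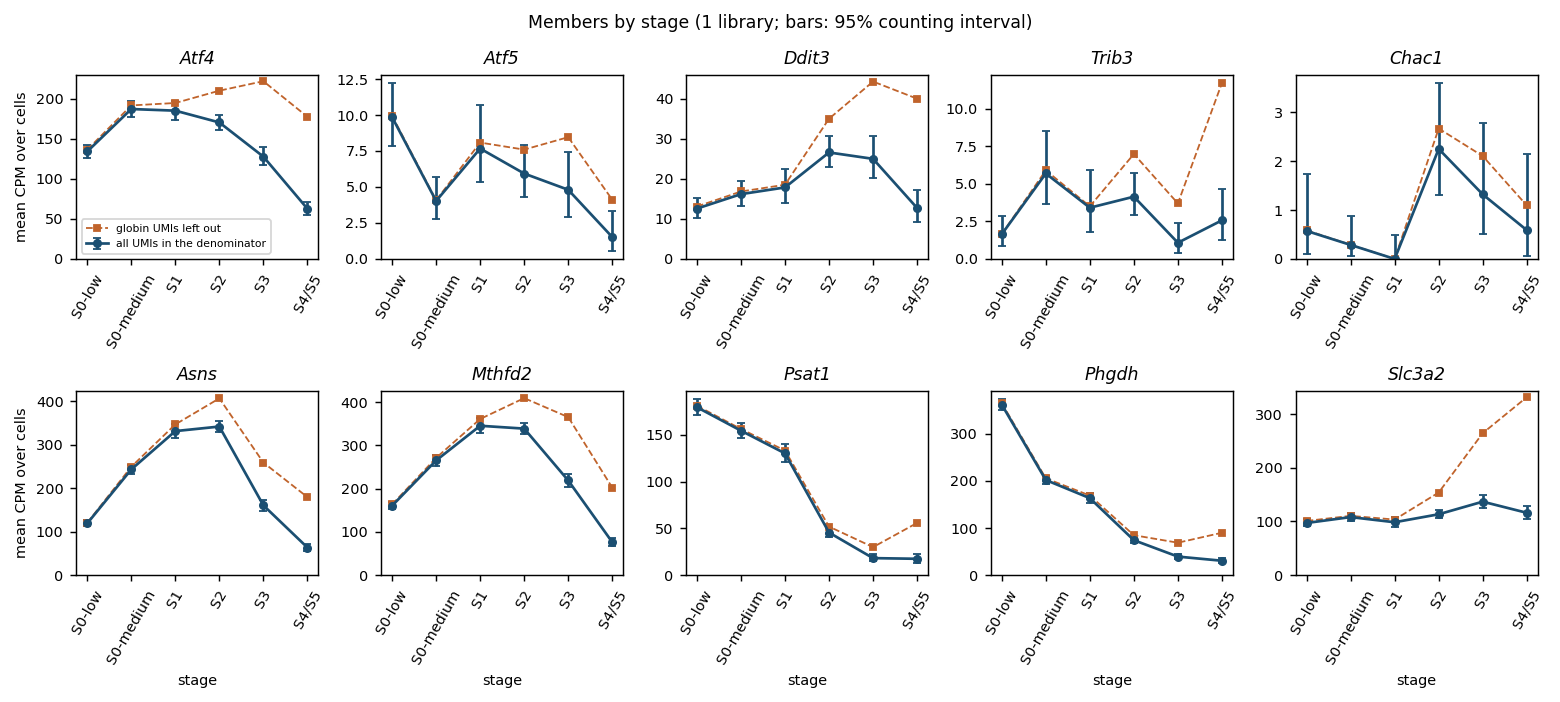
Mean CPM over cells of each member in the 6 stages, with all UMIs in the denominator (blue, bars give the 95% counting interval) and with globin UMIs left out (orange, no interval drawn); the bar of *Chac1* in S1, where no UMI was found, ends at the level of 3 counts. With all UMIs, *Asns* and *Mthfd2* are highest in S1 and S2, *Psat1* and *Phgdh* are lower at each stage from S0-low to S3, and the curves with and without globin part from S2 on. S0-low includes its cells of the high hepatocyte-marker range.

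*Atf4*, on chromosome 15 from 80255184 to 80257545 (plus strand), encodes the central factor of the response. S0-low cells held a mean of 134 CPM (126.7–142.4), S0-medium cells 187 (177.7–197.5), S1 cells 185 (173.4–198.0), S2 cells 171 (161.5–180.2), S3 cells 128 (117.1–139.3) and S4/S5 cells 62.8 (54.9–71.5). In the order of their levels, S0-medium was not parted from S1 by counting error, nor S1 from S2, nor S0-low from S3. The *Atf4* ratio of S0-medium over S0-low was 1.40 (1.29–1.51) and that of S4/S5 over S3 was 0.491 (0.418–0.575). With globin left out the late part of the course changed: the level was 210 CPM in S2, 222 in S3 and 178 CPM in S4/S5, and S3 over S2 was 1.06 (0.940–1.18) in place of 0.749 (0.676–0.830).

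*Atf5*, on chromosome 7 from 44812256 to 44816658 (minus strand), encodes a related factor translated under the same control. Few UMIs were counted, from 122 in S0-low to 7 in S4/S5. Cells of S0-low had 9.85 CPM (7.84–12.2), S0-medium cells 4.03 (2.76–5.68), S1 cells 7.67 (5.32–10.7), S2 cells 5.93 (4.33–7.93), S3 cells 4.8 (2.95–7.40) and S4/S5 cells 1.52 (0.549–3.34). Of neighbours in the order of levels, only S0-medium and S4/S5 were parted by counting error. Of the 122 UMIs of S0-low, 71 lay in its 110 cells of the high hepatocyte-marker range, which had 61.7 CPM (45.1–82.3), against 4.92 CPM (3.23–7.19) in the S0-low cells with high cKit outside that range.

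*Ddit3*, on chromosome 10 from 127290793 to 127296291 (plus strand), encodes CHOP, a factor induced by ATF4 under lasting stress. S0-low cells held a mean of 12.6 CPM (10.3–15.2), S0-medium cells 16.2 (13.2–19.6), S1 cells 17.9 (13.95–22.5), S2 cells 26.6 (22.9–30.7), S3 cells 25.0 (20.1–30.7) and S4/S5 cells 12.7 (9.23–17.1). S2 and S3 were not parted from each other, and both lay above S1 beyond counting error, with S2 at 1.49 times S1 (1.13–1.98). S1, S0-medium, S4/S5 and S0-low were not parted step by step. Without globin the S4/S5 level was 40.0 CPM, near that of S3 at 44.3 CPM. As UMIs per cell, S2 over S1 was 1.04 and S3 over S2 0.721.

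*Trib3*, on chromosome 2 from 152337425 to 152344060 (minus strand), encodes a pseudokinase that is induced by ATF4 and dampens it. Only 152 UMIs were counted in all kept cells, with 49 in S2, 34 in S0-medium and 7 in S3. Cells of S0-low had 1.65 CPM (0.869–2.83), S0-medium cells 5.69 (3.63–8.5), S1 cells 3.41 (1.79–5.90), S2 cells 4.15 (2.93–5.71), S3 cells 1.08 (0.379–2.41) and S4/S5 cells 2.57 (1.26–4.66). No neighbours in the order of levels were parted by counting error, although S0-medium was above S0-low, by 3.46 times (1.68–7.47), and S3 below S2.

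*Chac1*, on chromosome 2 from 119351242 to 119354326 (plus strand), encodes an enzyme that degrades glutathione. It was close to the limit of detection, with 43 UMIs in 7244 cells. S2 had 22 of these and 2.25 CPM (1.32–3.59), S3 had 7 and 1.32 CPM (0.515–2.77), and S0-low, S0-medium and S4/S5 had 3, 3 and 2. In S1 there was no UMI in 612 cells, where 3 counts would have given 0.480 CPM. The 22 UMIs of S2 were spread over 1.16% of its cells, and no ratio is read for this gene.

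*Asns*, on chromosome 6 from 7675165 to 7693209 (minus strand), encodes asparagine synthetase, the target gene in which the amino acid response element was described. S0-low cells held a mean of 119 CPM (112.1–126.0), S0-medium cells 243 (232.3–253.9), S1 cells 331 (315.1–347.3), S2 cells 341 (328.9–354.2), S3 cells 160 (148.4–172.9) and S4/S5 cells 63.4 (55.5–72.1). S1 and S2 were not parted by counting error, and every other pair of neighbours in the order of levels was. S0-medium over S0-low was 2.04 (1.90–2.20) and S1 over S0-medium 1.36 (1.28–1.46), while S3 over S2 was 0.470 (0.431–0.511) and S4/S5 over S3 0.395 (0.339–0.460). Without globin the later levels were 406 CPM in S2, 259 in S3 and 179 CPM in S4/S5, so *Asns* was still lower in S3 than in S2, at a ratio of 0.637 (0.580–0.699). After each cell was thinned to 2000 UMIs, an *Asns* UMI was found in 18.9% of S0-low, 36.0% of S0-medium, 46.2% of S1, 46.3% of S2, 23.5% of S3 and 10.2% (8.34–12.4) of S4/S5 cells. Cells with high CD11b, a myeloid antigen, had 9.77% (7.62–12.3), close to the S4/S5 share, but globin took 64.0% of the UMIs of S4/S5 cells and 2.49% of those of CD11b-high cells, and without globin the *Asns* level was 179 CPM in S4/S5 and 61.5 CPM in CD11b-high cells. Unthinned, the shares ran from 20.3% in S4/S5 to 84.2% in S1.

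*Mthfd2*, on chromosome 6 from 83305704 to 83326011 (minus strand), encodes a mitochondrial enzyme of folate one-carbon metabolism. Its course was close to that of *Asns*. Cells of S0-low had 160 CPM (151.9–169.2), S0-medium cells 265 (253.2–277.3), S1 cells 345 (328.4–362.5), S2 cells 339 (325.5–352.1), S3 cells 219 (204.6–233.6) and S4/S5 cells 76.1 (67.4–85.7). S1 and S2 were again the pair not parted by counting error. S0-medium over S0-low was 1.65 (1.54–1.77) and S4/S5 over S3 0.348 (0.303–0.399). Without globin, S3 held 365 CPM and S2 409 CPM, a ratio of 0.893 (0.820–0.971), and the ratio for S4/S5 over S3 was 0.554 (0.476–0.644).

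*Phgdh* (chromosome 3, 98313171 to 98339969, minus strand) and *Psat1* (chromosome 19, 15905123 to 15925059, minus strand) encode the enzymes of the initial steps of serine synthesis. For *Psat1*, S0-low cells held 179 CPM (170.8–188.3), S0-medium cells 154 (146.1–162.9), S1 cells 130 (120.7–140.1), S2 cells 45.5 (41.2–50.1), S3 cells 18.2 (14.7–22.1) and S4/S5 cells 17.5 (13.5–22.2). Of the 2263 *Psat1* UMIs of S0-low, 535 lay in its 110 cells of the high hepatocyte-marker range, at 417 CPM (375.6–461.3). Outside that range, S0-low cells held 160 CPM where cKit was high and 162 CPM where it was low. S2 over S1 was 0.350 (0.309–0.395) and S3 over S2 0.399 (0.317–0.498). S3 and S4/S5 were the single pair of neighbours that counting error did not part in CPM, at 0.961 (0.692–1.33), whereas without globin *Psat1* was higher in S4/S5 than in S3, at 1.86 (1.29–2.68). As UMIs per cell it was lower in S4/S5, at 0.0891 against 0.162 in S3, so the direction depends on the scale.

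For *Phgdh*, S0-low cells held 362 CPM (350.4–374.1), S0-medium cells 202 (193.1–211.1), S1 cells 163 (153.3–174.1), S2 cells 74.2 (68.8–79.9), S3 cells 39.3 (33.7–45.6) and S4/S5 cells 30.5 (25.2–36.7). Of the 4919 *Phgdh* UMIs of S0-low, 1435 lay in its cells of the high hepatocyte-marker range, at 1087 CPM (1022–1156). Outside that range, S0-low cells held 359 CPM where cKit was high and 231 CPM where it was low. All neighbours were parted by counting error in CPM, and the largest step was S2 over S1, at 0.454 (0.411–0.501). S4/S5 over S3 was 0.777 (0.608–0.989) in CPM and 1.31 (0.984–1.73) without globin. The level of *Phgdh* is uncertain because its 3′ end has near-identical copies in the genome: 25 of 26 tiles of 100 bases over the last 600 bases of its transcript matched a second place in mm9 at 95 or more bases, against 0 tiles for the other 9 members. Still, 21 of the 26 *Phgdh* tiles had a single best place. For *Slc3a2* only 21 of 26 tiles matched the genome at all. How reads that match several places were counted decides how many *Phgdh* UMIs were kept.

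Late levels of several members were set beside those of transcripts foreign to erythroid cells. In S3, *Psat1* stood at 18.4% and *Phgdh* at 22.7% of their mean over all kept cells, and the summed hepatocyte markers of S3 cells outside the high hepatocyte range at 20.7%. In S4/S5 the shares were 17.7%, 17.6% and 27.9%, and those of *Asns* and *Mthfd2* were 33.4% and 35.3%. *Atf5* stood at 23.8% in S4/S5. Of the 86 genes of the pathway lists that could be read, 7 also stood at or below 20.7% in S3, among them *Eif2ak4*, *Mthfd1*, *Bcat2* and *Slc38a1*. The part of free RNA in such levels was not tested, and these levels, and the ratios that use them, are given as measured and not as a sign that the cells express the gene. In S2 *Psat1* and *Phgdh* stood at 46.1% and 42.8%, against 14.5% for the hepatocyte markers.

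*Slc3a2* (chromosome 19, 8706882 to 8723369, minus strand) encodes CD98hc, the heavy chain of several amino acid exchangers. S0-low cells held a mean of 97.1 CPM (90.8–103.8), S0-medium cells 108 (101.2–115.4), S1 cells 98.5 (90.0–107.6), S2 cells 113 (105.6–121.5), S3 cells 137 (125.1–149.3) and S4/S5 cells 116 (104.8–128.3). Only S3 was parted from its neighbour in the order of levels. S3 over S2 was 1.21 (1.08–1.35) in CPM and 1.72 (1.52–1.95) without globin, but 0.888 as UMIs per cell. With globin left out, *Slc3a2* was highest in S4/S5, at 331 CPM, against 110 CPM in S0-medium. As UMIs per cell it was lowest in S4/S5, at 0.461 against 1.19 in S0-medium, so this order depends on the scale.

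A ratio of at least 2 or at most 0.5 was used to set the members beside all genes with at least 50 UMIs over the stages compared. From S0-low to S0-medium, 9 members could be read. *Asns* and *Trib3* were above the limit, where 1.85% of the 9834 genes tested were, and *Atf5* was below it, as were 14.3% of genes. The *Asns* ratio lies at the limit itself, and it was 1.88 for pooled CPM and 1.96 with a lineage limit on the counts themselves. For pooled CPM *Trib3* did not pass the limit either. The ratio of *Asns* was higher than that of 98.3% of all genes tested and that of *Mthfd2* higher than 96.2%. From S0-medium to S1, none of 9 members passed the limit in either direction, against 0.45% of genes above and 2.48% below.

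From S1 to S2, 2 of 9 members were below the limit, *Psat1* and *Phgdh*, and none above, against 14.8% and 2.09% of genes. The share of members below was thus near the background. With gates set on log10 antibody counts the ratios were 0.599 for *Psat1* and 0.665 for *Phgdh*, and *Asns* was 1.58 times higher in S2 than in S1 in place of 1.03. From S2 to S3, 3 of 9 members were below, *Asns*, *Psat1* and *Trib3*, and none above, against 31.7% and 1.55% of genes. From S3 to S4/S5, 3 of 7 members were below, *Atf4*, *Asns* and *Mthfd2*, and none above, against 42.5% and 0.27% of genes. With the log10 gates *Asns* was at 0.580 in S3 over S2 and no longer past the limit. Both shares below were again near the background. Without globin in the denominator no member passed the limit in the last 2 steps, where 4.83% of all genes were above and 7.63% below from S2 to S3, and 2.99% and 7.92% from S3 to S4/S5.

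From S0-medium to S3, the stages before and after most of the globin increase, 2 of 8 members were below the limit, *Psat1* at 0.118 (0.095–0.144) and *Phgdh* at 0.195 (0.166–0.228), and none above, against 66.3% and 5.17% of genes. Their median ratio was 0.754, against 0.368 over all genes tested. The other 6 lay above the median of all genes, from 0.660 (0.604–0.721) for *Asns* and 0.682 (0.616–0.755) for *Atf4* to 1.54 (1.15–2.06) for *Ddit3*. Without globin the median of the members was 1.25 and that of all genes 0.601, and 3 of 8 members were above the limit and 2 below, against 11.3% and 39.5% of genes. On that scale *Slc3a2* was 2.39 times higher in S3 (2.13–2.69), *Ddit3* 2.63 times (1.93–3.57) and *Atf5* 2.07 times (1.07–3.87), while *Asns* was at 1.04 (0.943–1.14) and *Psat1* still at 0.192 (0.148–0.245). As UMIs per cell, *Slc3a2* was at 0.588, *Ddit3* at 0.870 and *Atf5* at 0.755, so the direction of all 3 depends on the scale. No median over all genes is given for UMIs per cell, which a lower depth lowers for every gene. Median depth was 10282 UMIs in S0-medium and 4534.5 UMIs in S3. With the log10 gates *Asns* was at 1.26 and *Mthfd2* at 1.16 in CPM, so their direction depends on the gates, while *Psat1* was at 0.125 and *Phgdh* at 0.148.

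To resolve the course within the stages, the Ter119-low cells were cut into 8 groups by rising CD71, S2 into 3 by rising Ter119 and the Ter119-high cells into 5 by falling CD71. The mean of *Asns* was higher in each successive group up to group 9, from 41.8 CPM (32.9–52.5) in the Ter119-low cells with the lowest CD71 to 397 CPM (375.3–420.3) in the S2 cells with the lowest Ter119, and lower in each group after that, down to 44.7 CPM (33.8–58.0). *Mthfd2* also had its highest level in that S2 group, at 391.8 CPM, and so it had without globin in the denominator. By stage and as UMIs per cell, both genes were lower in S2 than in S1. *Asns* was at 2.79 against 3.46 and *Mthfd2* at 2.54 against 3.43, so a peak in S2 depends on the scale. *Atf4* went from 76.4 CPM in group 1 to 179 CPM in group 4, and stayed between 151 and 202 CPM up to the Ter119-high cells with the highest CD71. *Phgdh* went from 427 CPM in group 2 to 155 CPM in group 8, and *Psat1* from 202 CPM in group 3 to 118 CPM in group 8. Cells of the high hepatocyte-marker range, 110 of them in S0-low, were not left out of the groups. The low-CD71 groups, and correlations over the groups, therefore include them.

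**Figure D2:**
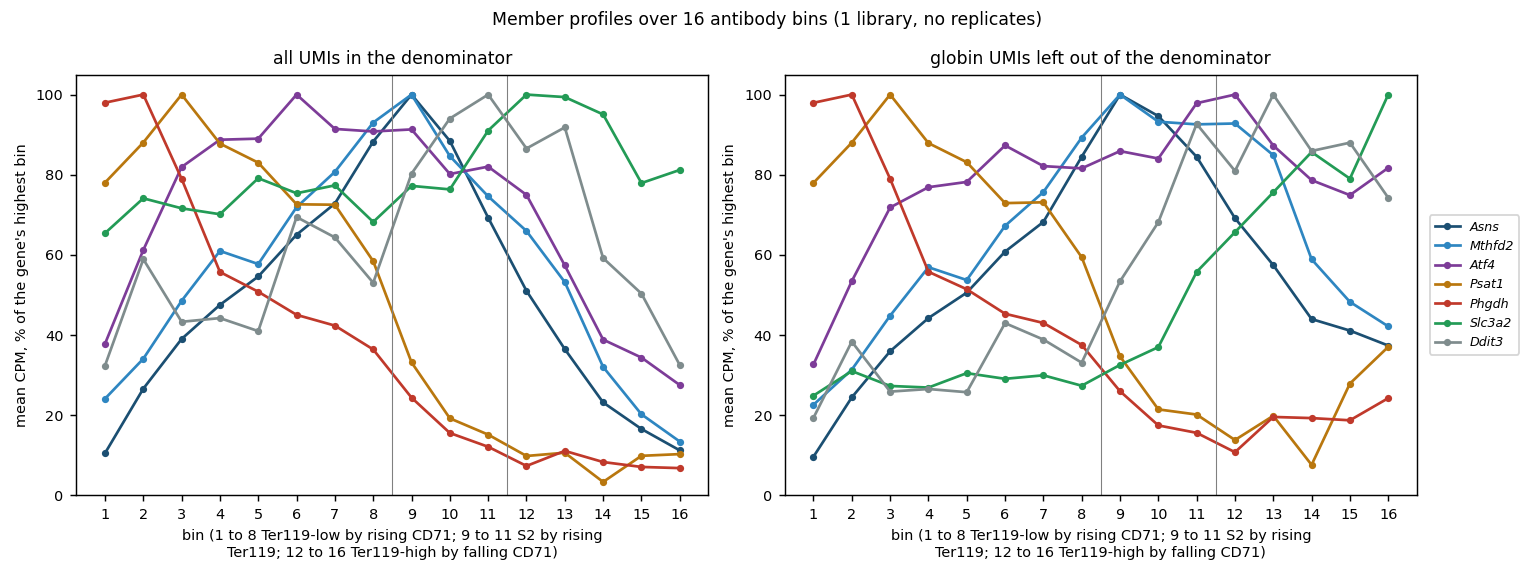
Mean CPM of 7 members in 16 groups of cells ordered by surface CD71 and Ter119, as a percentage of the gene's highest group, with all UMIs in the denominator (left) and globin UMIs left out (right); vertical lines part Ter119-low, S2 and Ter119-high cells. *Asns* and *Mthfd2* peak in group 9, *Phgdh* and *Psat1* in groups 2 and 3, and the peaks of *Atf4*, *Ddit3* and *Slc3a2* move to later groups when globin is left out. Cells of the high hepatocyte-marker range are included.

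Over these 16 groups, which share 1 library, the correlation of log2(mean CPM + 10) described how alike the courses were. It was 0.973 for *Asns* and *Mthfd2* (0.964 without globin) and 0.956 for *Phgdh* and *Psat1* (0.895). *Atf4* correlated with *Mthfd2* at 0.930 (0.858) and with *Asns* at 0.916 (0.893). Between the pairs the values were low or depended on the denominator, at 0.085 for *Asns* and *Phgdh* and −0.643 without globin. Among 6331 other genes, the courses closest to that of *Asns* were those of *Slc39a8* (r = 0.983, and 0.976 without globin), *Rnf14* (0.981 and 0.771) and *Smim1* (0.980 and 0.975). Those closest to *Mthfd2* were *4930523C07Rik* (0.989 and 0.952), *Cyb5r3* (0.985 and 0.969) and *Rnf14* (0.984 and 0.777). *Atf4* was closest to *Tlcd1* (0.977 and 0.838), *Gfi1b* (0.976 and 0.893) and *Gstm5* (0.972 and 0.785), and *Ddit3* to *Gid8* (0.922 and 0.910), *Spc25* (0.920 and 0.897) and *Esco2* (0.919 and 0.875). For *Psat1* they were *Srpk1* (0.992 and 0.971), *Isy1* (0.992 and 0.981) and *Mydgf* (0.992 and 0.982), and for *Phgdh* *Bri3* (0.990 and 0.975), *Ube2q1* (0.989 and 0.924) and *Actg1* (0.989 and 0.963). For *Slc3a2* they were *Sh3glb1* (0.928 and 0.989), *Dok1* (0.894 and 0.976) and *Gm15800* (0.891 and 0.957), and for *Atf5* *Iah1* (0.915 and 0.715), *Nsdhl* (0.900 and 0.793) and *Acadl* (0.893 and 0.578). Within a stage the thinned counts of 2 members were hardly correlated from cell to cell, with r between −0.064 and 0.117 over 72 pairs and stages, and nothing is read from these sparse counts.

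S0-low is a mixture, and the members differed within it. Outside the high hepatocyte-marker range it held 812 cells with high cKit and 588 with low cKit, with median depths of 8408.5 and 4345 UMIs. *Asns* was lower in the cKit-high cells, at 92.3 CPM (85.4–99.7) against 138 (124.7–152.8), and so was *Mthfd2*, at 139 (129.5–148.3) against 209 CPM (191.2–227.0). *Phgdh* was higher in them, at 359 against 231 CPM, a ratio of 1.55 (1.42–1.70), and *Psat1* was not distinguishable, at 160 and 162 CPM, a ratio of 0.986 (0.879–1.11). As UMIs per cell, *Asns*, *Mthfd2* and *Psat1* were 1.34, 1.28 and 1.76 times higher in the deeper cKit-high cells, so their order depends on the scale. Other traits moved with the split. Macrophage marker sums were 21.8 CPM in cKit-high and 108 CPM in cKit-low cells, with all 8 markers detected in both. In the same order, erythroid marker sums were 1829 and 2791 CPM and myeloid sums 702 and 909 CPM. The globin share was 0.824% and 1.72%, and the median CD71 count 60 and 83. Hepatocyte sums were 272 and 271 CPM, megakaryocyte sums 89.8 and 80.9 CPM and early progenitor sums 915 and 881 CPM. The part of these traits in the member differences was not tested.

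Set against the cKit-high cells alone, the early ratios of *Asns* and *Mthfd2* lay further from 1 than against all of S0-low, and those of *Psat1* and *Phgdh* did not. The *Asns* ratio was 2.63 for S0-medium (2.41–2.88) and 3.70 for S2 (3.39–4.03), and that of *Mthfd2* 1.91 (1.76–2.07) and 2.44 (2.26–2.64). For *Atf4* in S0-medium it was 1.48 (1.35–1.62). *Phgdh* was at 0.563 in S0-medium (0.529–0.599) and *Psat1* at 0.966 (0.888–1.05). The lower *Atf5* level of S0-medium was no longer beyond counting error, at 0.818 (0.474–1.42).

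**Figure D3:**
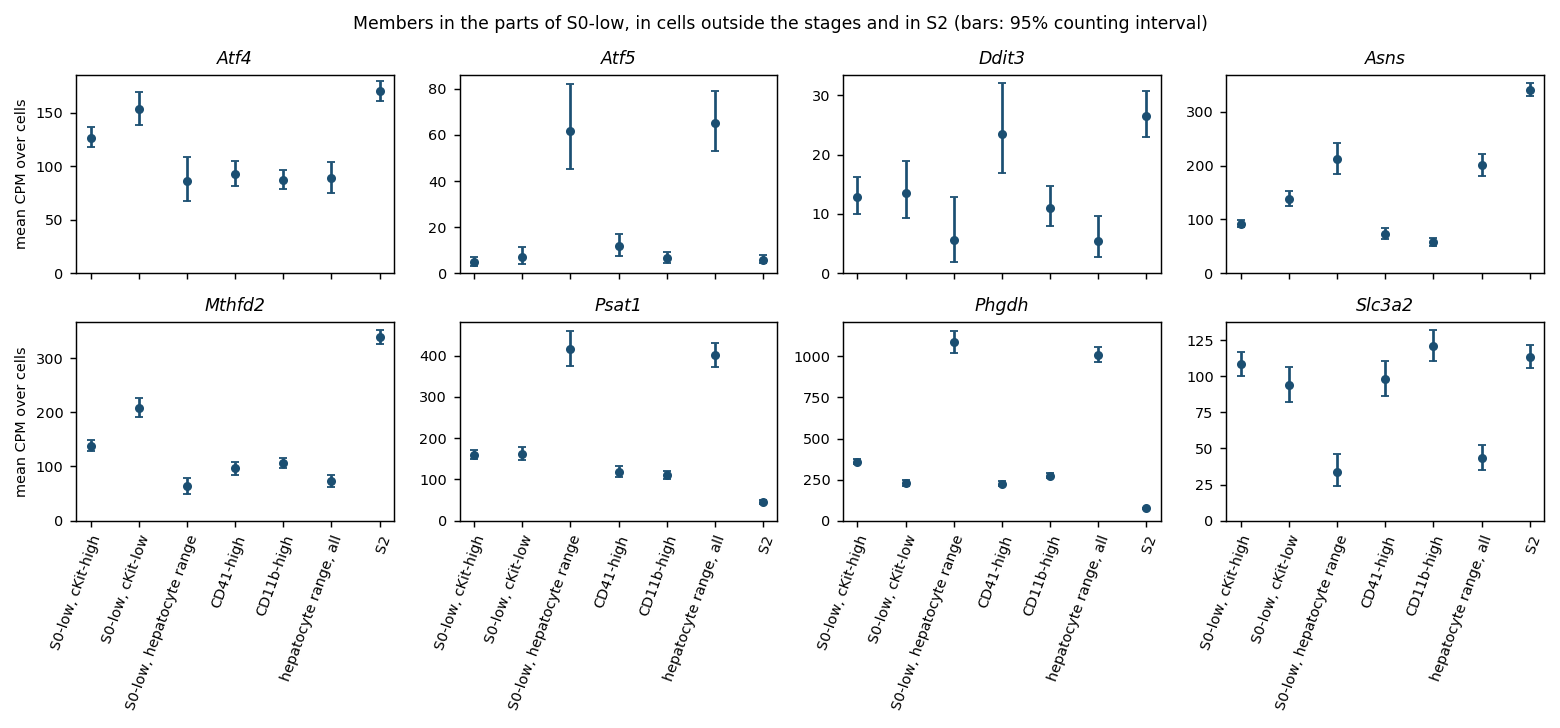
Mean CPM of 8 members with 95% counting intervals in the 3 parts of S0-low, in CD41-high and CD11b-high cells, in all cells of the high hepatocyte-marker range and, for comparison, in S2. *Phgdh*, *Psat1* and *Atf5* are highest in the cells of the hepatocyte range, and *Asns* and *Mthfd2* in S2.

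The members also differed in groups of cells taken from all kept cells whatever their stage. These groups were formed separately, so a cell can be in more than 1 of them or in a stage as well. Of the 197 cells of the high hepatocyte-marker range, 110 were S0-low cells. The 197 cells of the high hepatocyte-marker range, with 90780 CPM of the 12 hepatocyte markers, had 1011 CPM (966.9–1057) of *Phgdh*, 401 (372.3–431.7) of *Psat1*, 201 (181.7–221.5) of *Asns* and 65.0 CPM (53.0–79.0) of *Atf5*. Over cKit-high S0-low cells these were 2.82, 2.51, 2.18 and 13.2 times higher. *Mthfd2*, *Ddit3* and *Slc3a2* were lower there, at 0.524, 0.424 and 0.400 times. In the 365 CD41-high cells, which had 7301 CPM of the 8 megakaryocyte markers but also 5323 CPM of hepatocyte and 5192 CPM of myeloid markers, *Ddit3* was at 23.5 CPM (16.8–32.0), 1.84 times the cKit-high level (1.21–2.75), and *Asns* at 72.8 CPM (62.9–83.8). The share of cells with a *Ddit3* UMI did not differ, at 10.96% in both groups. After thinning it was 3.29% (1.71–5.67) in CD41-high and 2.59% (1.61–3.93) in cKit-high S0-low cells. The variance of the thinned counts over their mean was 1.71 and 0.975 in the same order, so the CD41-high counts spread beyond counting error. The 665 CD11b-high cells, with 11272 CPM of the 9 myeloid markers, had 57.7 CPM (50.8–65.2) of *Asns*, 0.625 times the cKit-high level (0.538–0.723), and *Slc3a2* at 121 CPM (110.3–132.2).

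Other genes of the pathway were followed as lists, described here for S3 over S0-medium beside the median of 0.368 and the shares of all genes given above. Of 14 genes for eIF2 kinases, phosphatases and subunits, all tested, 2 were above the limit of 2 and 11 below 0.5, with a median of 0.378. *Eif2ak1*, the haem-regulated kinase, went from 30.1 CPM in S0-low over 48.0, 52.1 and 96.2 CPM to 158 CPM in S3 and 129 CPM in S4/S5, so S3 was 3.30 times higher than S0-medium (2.87–3.79). *Ppp1r15a*, which encodes the phosphatase subunit GADD34 and is itself induced by ATF4 and CHOP, was at 26.3, 50, 86.8, 276, 546 and 451 CPM in the same order, 10.9 times higher in S3 than in S0-medium (9.59–12.5). *Eif2ak4*, the kinase GCN2 that senses uncharged tRNA, was at 8.0 CPM in S0-medium and 0.756 CPM in S3, on 99 UMIs.

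Of 14 ATF4 partners and stress effectors 6 could be read, with 0 above and 5 below and a median of 0.460. *Eif4ebp1*, a translation inhibitor, was at 299 CPM in S0-medium and 43.6 CPM in S3, a ratio of 0.146 (0.126–0.168), and *Sesn2*, a leucine sensor, at 0.445 (0.248–0.757). Of 16 further serine, glycine and one-carbon enzymes 12 could be read, with 0 above and 9 below and a median of 0.275. The lowest was *Mthfd1*, the cytoplasmic one-carbon enzyme, at 83.1 CPM in S0-medium and 9.17 CPM in S3, a ratio of 0.110 (0.082–0.146). *Psph*, which completes serine synthesis after *Psat1*, was at 0.193 (0.159–0.231), whereas *Mthfd2* had 0.825 (0.761–0.894). Of 14 other amino acid synthesis enzymes 10 could be read, with 0 above and 6 below and a median of 0.222. *Bcat2*, a branched-chain aminotransferase, was at 0.119 (0.064–0.204) and *Aldh18a1*, an enzyme of proline synthesis, at 0.139 (0.073–0.241).

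Amino acid transporters had the highest median among these lists, 0.762 over 11 of 16 genes, with 3 above and 4 below. *Slc6a9*, a glycine transporter, went from 3.03 CPM in S0-low over 8.91, 15.5 and 33.8 CPM to 38.7 CPM in S3 and 15.0 CPM in S4/S5, 4.34 times higher in S3 than in S0-medium (3.17–6.03). *Slc25a38*, the mitochondrial glycine carrier used for haem synthesis, had 142 CPM in S0-medium and 108 CPM in S3, and *Slc38a1*, a glutamine transporter, 73.5 and 9.45 CPM. All 20 cytoplasmic aminoacyl-tRNA synthetases could be read, with 0 above and 15 below and a median of 0.335. *Aars*, the alanyl-tRNA synthetase, went from 262 CPM in S0-medium over 205 and 111 to 59.9 CPM in S3. Of 14 unfolded protein response genes of the other arms 13 could be read, with 0 above and 6 below and a median of 0.518. The chaperones *Hsp90b1* and *Calr* were at 0.261 (0.230–0.294) and 0.447 (0.411–0.485), whereas the chaperone *Hspa5*, named after its values were seen, was at 1.07 (0.982–1.17), with 192 CPM in S0-medium and 206 CPM in S3, and at 2.02 without globin. Without globin the medians of the 7 lists were 0.579, 0.789, 0.437, 0.405, 1.26, 0.523 and 0.824 in the order given, beside 1.25 for the members.

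**Figure D4:**
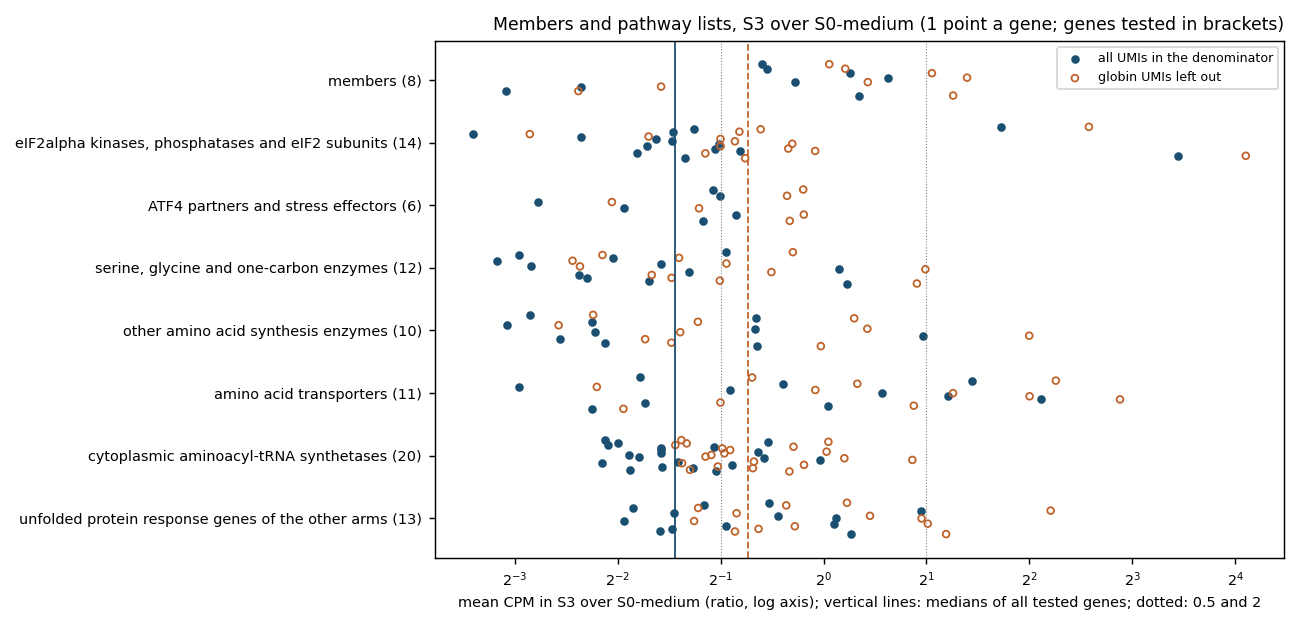
Ratio of mean CPM in S3 over S0-medium on a log axis for the members and the genes of the 7 lists, 1 point a gene, with all UMIs in the denominator (filled) and globin UMIs left out (open). Vertical lines mark the medians of all genes tested, 0.368 and 0.601, and dotted lines 0.5 and 2; 6 of 8 members lie to the right of the median, and *Psat1* and *Phgdh* to its left.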

How the data were processed

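Per the labels and the methods of the study, the cDNA library was a 10x 3′ library aligned to mm10 with Cell Ranger, and the authors deposited raw UMI counts per gene and cell, before their quality and doublet filters. The authors assigned antibody reads to cells and deposited raw antibody counts. How reads matching several places were treated, and whether antibody reads were collapsed by UMI, is not given in the sources used here.

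Kept were cells of 300 to 5000 detected genes whose mitochondrial share was at most 9%, and Scrublet doublets (expected rate 6%, 128 called) were removed, which left 7244 cells of 2510 to 38047 UMIs among those deposited. The gate positions are not given, so stages were rebuilt: a lineage limit on the log of the summed counts of 5 antibodies (2 scaled median absolute deviations above the median), and k-means on the centered log ratio across cells as Seurat forms it (3 Ter119 classes, 3 CD71 classes in Ter119-low and 2 in Ter119-high cells). Ter119-intermediate cells entered S2 only above the upper CD71 border of the Ter119-low cells. The others were in no stage, which left 6209 of 6424 lineage-low cells in a stage. The log of the lineage sum and the Seurat form replaced a limit on the sum itself and a plain log ratio after the stage sizes and member values those gave had been seen, because the new gates came closer to stage sizes of an earlier analysis of these data. The earlier choices are given as alternatives, the lineage limit as one added after seeing the data and the plain log ratio through log10 counts, which order and space cells alike. Because Ter119+ cells were depleted and then returned in equal number, cell shares do not describe the tissue. The high hepatocyte-marker range is a range of the UMI share of 12 markers, above 0.641%, with 5 cells near the limit, not a cell type. CD41-high and CD11b-high cells are the upper of 2 k-means classes of that antibody over all kept cells, and cKit classes were made likewise in S0-low.

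Levels are means over cells of CPM. Intervals (95%) use the effective number of counts of that mean, gamma for levels, Clopper-Pearson for ratios and shares. The ratio intervals were checked on simulated counts with 1 rate per gene for all cells of a stage. The intervals assume the same, so this check cannot show their coverage where cells of a stage differ. Genes with at least 50 UMIs over both stages were read. Genes named were the 10 members, from each list up to 4 genes past the 2-fold limit in S3 over S0-medium with the largest change and the gene of the highest S0-medium level, *Eif2ak1*, and the 3 genes of the most like course for members with at least 200 UMIs. Of these the text gives a part, and 1 gene the rule names is not reported here. The members and lists were chosen with earlier results of these data known. Uniqueness was checked with minimap2 2.31 on mm9, from which no coordinate was taken. Gene positions and promoters come from RefSeq on GRCm38.p6. Alternatives changed the denominator, unit, mean, antibody scale, classes, border cells, lineage and quality filters, cells, UMI minimum and fold. Tools were scanpy 1.11.5, anndata 0.12.19, scikit-learn 1.9.0, scipy 1.17.1, numpy 2.4.6, pandas 2.3.3 and matplotlib 3.10.9 in Python 3.11.15, with random seed 7.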

Additional observations from a re-analysis of the deposited data

How the results depend on the processing

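The alternatives to the cells, gates and scale gave 143 values for the 13 ratios past the 2-fold limit. Of these, 142 lay on the same side of 1. The exception was *Atf5* in S0-medium over S0-low, at 1.14 when antibodies were scaled by the mean of each cell. These 13 ratios were picked as far from 1, so keeping their side says little about their size. Over all member ratios, 499 of 561 values kept their side of 1, but only 397 of 561 lay within the counting interval. Of 51 values for each alternative, 19 lay within it as UMIs per cell and 22 with log10 antibody counts. The number was 23 with within-cell scaling, 25 without globin and 29 to 49 for the others. No paired analysis was possible because there is 1 cDNA library and the ratios come from no test. The livers were pooled, so differences between livers cannot be told apart from differences between stages. All stages share 1 cDNA library and 1 staining, so whether the differences would recur in another library or staining is not known. The counts of *Atf5*, *Trib3* and *Chac1* limit what can be read of these genes. The changes below are not a complete list, and their causes were not tested.

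For S0-medium over S0-low, 2 members were above the limit. There were 0 for pooled CPM and 1, *Asns*, with within-cell antibody scaling, log10 antibody counts or border cells left out. It was also 1, *Asns*, with cKit-low cells and the hepatocyte range left out. There *Trib3* had too few UMIs to be read, 34 in S0-medium and 9 in cKit-high S0-low cells, though its ratio was 4.87 (1.88–15.3). With the lineage limit on the counts, an alternative chosen after seeing the data, it was 1, *Trib3*. As UMIs per cell *Mthfd2* was above as well, at 2.56 in S0-medium and 1.23 in S0-low. The 1 member below, *Atf5*, became 0 for UMIs per cell, within-cell scaling, log10 counts, a Gaussian mixture and without the cKit-low and hepatocyte-range S0-low cells, and 2 at a fold of 1.5. For S1 over S0-medium, 1 member in place of 0 was above with a Gaussian mixture (*Trib3*) or a fold of 1.5 or that lineage limit (both *Atf5*), and 1 below with within-cell scaling (*Atf5*), no UMI minimum (*Chac1*) or a fold of 1.5 (*Trib3*). For S2 over S1, 1 was above with within-cell scaling (*Trib3*), a minimum of 20 UMIs or none (*Chac1*). Below the limit in place of 2 was 1, *Psat1*, without globin or for pooled CPM, and 0 with log10 counts. Without globin, 9.53% of all genes were below and 4.32% above in that step. For S3 over S2, 0 in place of 3 were below without globin, and 5 at a fold of 1.5. As UMIs per cell *Phgdh* was below as well, at 0.302 in S3 and 0.702 in S2. With log10 counts *Asns* was no longer below. For S4/S5 over S3, 0 in place of 3 were below without globin, 5 with no lineage filter and 5 with no UMI minimum, which also put 1, *Trib3*, above. As UMIs per cell *Ddit3* was below as well, at 0.0512 in S4/S5 and 0.131 in S3. For S3 over S0-medium, 3 in place of 0 were above without globin (*Atf5*, *Ddit3*, *Slc3a2*; 11.3% of all genes were on that scale), 1 with no UMI minimum (*Chac1*) and 1 at a fold of 1.5 (*Ddit3*), and 4 in place of 2 were below for UMIs per cell (*Atf4*, *Asns*, *Psat1*, *Phgdh*). Median depth was 10282 UMIs in S0-medium and 4534.5 UMIs in S3, and a lower depth lowers the UMIs per cell of every gene. Except without globin, the share of all genes past the limit is not given for these alternatives. Their counts are therefore not read as a result about the members.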
